A study of Cavia porcellus with 10 samples.

Results

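The S100 genes encode a family of small calcium-binding proteins, and 9 of them were chosen by name: S100A1, S100A4, S100A6, S100A10, S100A11, S100A13, S100A14, S100A16 and S100B. For each, the line of the count table with that symbol was taken, ignoring case, and where a symbol stood on several lines the one with the highest mean count was used. This gave 8 genes among 17642 lines with a symbol, and all 8 were among the 14683 genes with enough reads to be tested. S100A6 was not analysed here. The tissue was sclera, the tough white wall of the eyeball, of male guinea pigs aged 2 to 3 weeks. Myopia had been induced by lenses worn on both eyes in one group, while the controls received no treatment. Each group had 5 RNA-seq libraries from eyes. Because both eyes of a treated animal wore lenses, no treated animal gave an untreated fellow eye, and the labels do not say which eyes came from the same animal or how long the lenses were worn.

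S100 proteins carry EF-hand loops that bind calcium, and most work as dimers without enzyme activity of their own. Binding of calcium opens a surface that docks onto partners such as annexins, myosins and scaffold proteins, and several members are also released from cells and bind surface receptors including RAGE, the product of AGER. S100A10 is the exception in that it holds its open shape without calcium. Many S100A genes stand close together in mammalian genomes, whereas S100B lies elsewhere and is best known from glia, among them the Schwann cells that wrap peripheral nerves.

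The libraries held between 32309258 and 35430797 counts each. Levels are given as CPM, read counts relative to library size, scaled with TMM factors, which correct for RNA composition. These factors separated the groups, at 0.777 to 0.968 in control and 1.11 to 1.25 in myopia. On the first principal component of all tested genes, which carried 77.1% of the variance, controls 4 and 5 were the control libraries nearest to myopia. All 10 fibroblast markers that define sclera were detected, and their summed level was 127589 to 158563 CPM in control and 71786 to 98303 CPM in myopia. Most of that sum was COL1A1, at means of 82710 CPM in control and 35547 CPM in myopia. Of the 10 markers 4 fell, 2 rose and 4 did not pass (median -0.20 on the log2 scale), and with total count scaling 3 were lower and 5 higher. In such bulk tissue, fewer cells of a type and less RNA per cell cannot be told apart.

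Of the 8 S100 genes, 7 fell in myopia, none rose and S100B did not pass the test (edgeR quasi-likelihood test, Benjamini-Hochberg adjusted p under 0.05). The 7 that fell were all of the S100A kind, and their log2 fold changes ran from -1.35 for S100A11 to -0.53 for S100A14. Changes were common in this tissue, since 35.1% of all tested genes were lower and 36.9% higher in myopia. For 6 of the 8 genes the levels of the groups did not overlap, which held for 57.8% of all tested genes. The median log2 fold change was -0.90 over the 8 genes and 0.03 over all genes tested. Scaling by total count alone raised the median of all tested genes to 0.48 and the share of higher genes among those called from 51.2% to 73.5%. Under that scaling 5 of the S100A genes still fell, by 0.33 (S100A10) to 0.88 (S100A11) on the log2 scale, S100A1 and S100A14 no longer passed, and S100B rose. Without controls 4 and 5 all 7 S100A genes still fell, with log2 fold changes from -1.54 to -0.60.

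**Figure D1:**
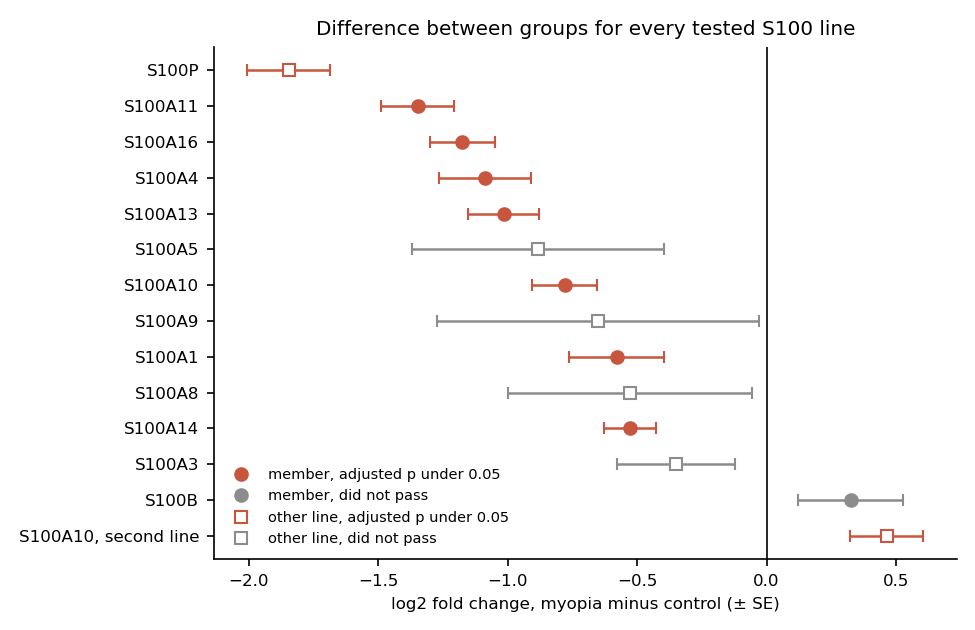
Log2 fold change, myopia minus control, with its standard error, for every tested line of an S100 gene; filled circles are the 8 chosen genes, open squares the other S100 lines, and red marks an adjusted p under 0.05. The 7 S100A genes lie between -1.35 and -0.53, S100B lies at 0.32 and S100P, at -1.85, is the lowest point.

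S100A10, also called p11, binds annexin A2 (ANXA2) and forms with it a complex at the inner side of the cell membrane that carries channels to the surface and binds plasminogen outside the cell. S100A10 stood at 490.9, 491.5, 483.3, 404.8 and 368.3 CPM in controls 1 to 5, and at 242.9, 303.0, 263.5, 206.1 and 288.9 CPM in myopia 1 to 5. All myopia libraries lay below all controls, and controls 4 and 5 were the lowest of their group. The mean was 448 ± 57.4 CPM in control and 261 ± 38.4 CPM in myopia (SD, n = 5 each), and the log2 fold change of S100A10, with its SE, was -0.78 ± 0.13 (adjusted p = 8.59e-05). ANXA2, at means of 1017 ± 178 and 424 ± 15.5 CPM, fell by 1.26 ± 0.12 (adjusted p = 1.65e-06), with no overlap of the groups.

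The ratio of S100A10 to ANXA2 reads does not depend on how the libraries were scaled. It was 0.418, 0.419, 0.447, 0.474 and 0.46 in controls 1 to 5 and 0.557, 0.729, 0.623, 0.511 and 0.654 in myopia 1 to 5. Every myopia library thus had more S100A10 reads per ANXA2 read than any control, by 0.46 on the log2 scale. An exact two-sided permutation test over the 252 arrangements of the libraries gave p = 0.00794, the smallest it can give, or 0.0159 adjusted over the 4 partner ratios examined. These ratios were chosen after levels of the genes had been seen, and the adjustment over 4 does not correct for that choice. Groups also did not overlap for 57.8% of all tested genes, and the share for ratios of other gene pairs was not determined. The p-values of the ratios are thus descriptive.

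S100A11, also called calgizzarin, binds annexin A1 (ANXA1) and takes part in membrane repair and in growth control. Its levels were 351.9, 336.0, 318.1, 231.4 and 215.7 CPM in controls 1 to 5 against 112.1, 113.0, 119.7, 99.01 and 126.8 CPM in myopia 1 to 5. The groups were far apart, with a narrow spread in myopia and a wide one in control, where libraries 4 and 5 were again lowest. S100A11 had the lowest log2 fold change of the 8 genes, -1.35 ± 0.14 (291 ± 62.7 to 114 ± 10.3 CPM, adjusted p = 2.42e-06). ANXA1 itself measured 331 ± 20.9 CPM in control and 309 ± 56.2 CPM in myopia (log2 fold change -0.10 ± 0.12, adjusted p = 0.478), a difference that turned positive, at 0.35, and passed with total count scaling (adjusted p = 0.0117). The ratio of S100A11 to ANXA1 reads was 1.02, 0.962, 0.924, 0.761 and 0.689 in controls 1 to 5 and 0.423, 0.329, 0.335, 0.426 and 0.366 in myopia 1 to 5. That ratio was lower in all 5 myopia libraries than in any control, by a log2 difference of -1.21 (exact permutation p = 0.00794, adjusted p = 0.0159). As ANXA1 differed little with TMM scaling, this ratio largely repeats the fall of S100A11 and is no separate result. The ratio of S100A10 to its annexin was therefore higher in myopia and that of S100A11 to its annexin lower.

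**Figure D2:**
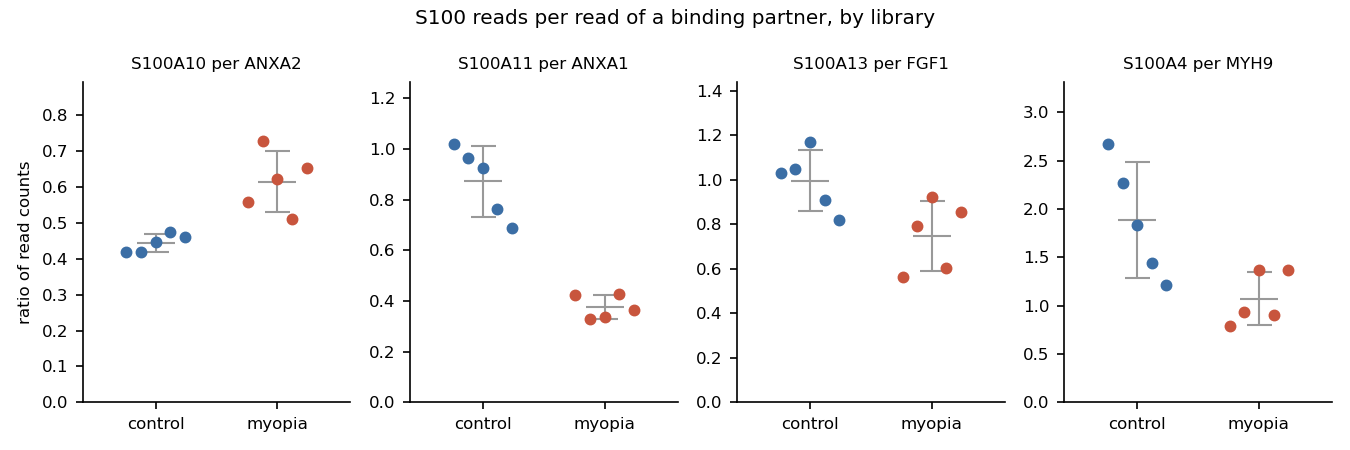
Reads of an S100 gene per read of a binding partner in each library (points), with group mean and SD (bars), on linear axes from 0. S100A10 per ANXA2 was higher in all 5 myopia libraries, S100A11 per ANXA1 was lower in all 5, and for S100A13 per FGF1 and S100A4 per MYH9 the groups overlapped.

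S100A4, known also as fibroblast-specific protein and expressed in fibroblasts and leukocytes, binds the heavy chain of non-muscle myosin (MYH9) and is linked to cell movement. Its levels in controls 1 to 5 were 1823, 1593, 1265, 1101 and 981.5 CPM, and in myopia 1 to 5 they were 568.7, 566.5, 724.3, 544.8 and 776.7 CPM. No library of one group reached the range of the other, and the controls differed widely among themselves. From a mean of 1353 ± 349 CPM in control to 636 ± 106 CPM in myopia, S100A4 fell by 1.09 ± 0.18 on the log2 scale (adjusted p = 9.32e-05). The myosin partner MYH9 measured 730 ± 55.0 CPM in control and 605 ± 71.0 CPM in myopia (log2 fold change -0.27 ± 0.11, adjusted p = 0.0347). Its call ended without any one of controls 2, 4 and 5 or myopia 2, 3, 4 and 5 (adjusted p from 0.0511 to 0.0934), and its direction turned, to 0.17, with total count scaling. S100A4 reads per MYH9 read went from 1.89 ± 0.595 to 1.07 ± 0.276 with overlapping groups (log2 difference -0.79, exact permutation p = 0.0317, adjusted p = 0.0397). Without any one of controls 1, 2 and 3 or myopia 1, 2 and 4 the p of that ratio was 0.0556 or 0.0635.

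Markers of leukocytes, cells in which S100A4 is also expressed, were mostly lower in myopia too. Among the controls, libraries 4 and 5 were lowest in both the marker sum and S100A4. These libraries were, however, also the lowest controls for all 7 S100A genes and had the highest TMM factors of their group. Myopia 5, in contrast, had the lowest marker sum of its group, 208 CPM, and the highest S100A4, 776.7 CPM. Of the 10 leukocyte markers 8 fell, 1 rose and 1 did not pass, and their summed level was 473 to 671 CPM in control and 208 to 282 CPM in myopia. Total count scaling made 8 lower and 2 higher. Among them CD14 fell from 69.0 ± 10.6 to 20.3 ± 2.41 CPM while PTPRC, the pan-leukocyte surface phosphatase, rose from 8.65 ± 2.46 to 20.5 ± 3.53 CPM. None of the 10 was at 0. The part of these cells in the difference of S100A4 was not tested.

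S100A13 takes part in the release of FGF1, a growth factor that lacks a signal peptide. Levels of S100A13 in controls 1 to 5 were 110.6, 102.3, 108.8, 81.61 and 71.06 CPM, and in myopia 1 to 5 they were 37.51, 47.81, 53.65, 43.91 and 51.63 CPM. The groups did not overlap. S100A13 fell to 49.4% of its control mean (94.9 ± 17.6 CPM in control, 46.9 ± 6.44 CPM in myopia), by 1.02 ± 0.14 on the log2 scale (adjusted p = 1.93e-05). Its cargo FGF1, at 94.9 ± 8.12 and 63.7 ± 5.99 CPM, fell by 0.58 ± 0.09 (adjusted p = 6.92e-05), although with total count scaling FGF1 did not pass (-0.12, adjusted p = 0.275). The ratio of their reads was 0.995 ± 0.136 in control and 0.747 ± 0.157 in myopia, with overlap (log2 difference -0.43, exact permutation p = 0.0397, adjusted p = 0.0397). Leaving out any one of controls 1 to 4 or myopia 1, 2 and 4 gave p from 0.0556 to 0.0952.

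S100A1 is a member of muscle, nerve and cartilage that regulates calcium release through ryanodine receptors in muscle. It was measured at 26.74, 35.97, 31.84, 20.66 and 24.37 CPM in controls 1 to 5 and at 18.21, 12.09, 20.63, 24.69 and 17.72 CPM in myopia 1 to 5. Here the groups overlapped, as myopia 4 lay above controls 4 and 5, and the other 4 myopia libraries lay below the lowest control. S100A1 fell by 0.58 ± 0.18 on the log2 scale (27.9 ± 6.06 to 18.7 ± 4.60 CPM, adjusted p = 0.0121), and with total count scaling it did not pass (-0.11, adjusted p = 0.628). In the guinea pig gene table of the assembly mCavPor4.1 the spans of S100A13 and S100A1 overlap, and that of S100A13 also overlaps CHTOP. Whether the counting used the strand is not known, so reads of these genes cannot be told apart with certainty. CHTOP, a chromatin-bound mRNA export factor, measured 119 ± 6.40 CPM in control and 130 ± 10.1 CPM in myopia (adjusted p = 0.155), and it passed as higher with upper quartile (0.21) and total count (0.59) scaling. Of the 11 skeletal muscle markers 4 fell, 2 rose and 5 did not pass, none was at 0, and the sum was 2547 to 6706 CPM in control and 1711 to 4342 CPM in myopia. For the cartilage markers, 7 of 8 tested, 1 fell, 1 rose and 5 did not pass, with sums of 242 to 334 and 257 to 319 CPM and none at 0. Total count scaling gave 1 muscle marker lower and 2 higher, and 0 cartilage markers lower and 3 higher. For nerve, the sum of Schwann cell and glia markers was lowest of its group in myopia 2 (3189 CPM) and highest in myopia 4 (9704 CPM). S100A1 was lowest and highest of the myopia libraries in the same ones. Among the controls this did not hold, as control 5 had the highest marker sum (9386 CPM) and control 2 the highest S100A1. The part of muscle, cartilage or nerve in the S100A1 difference was not tested.

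**Figure D3:**
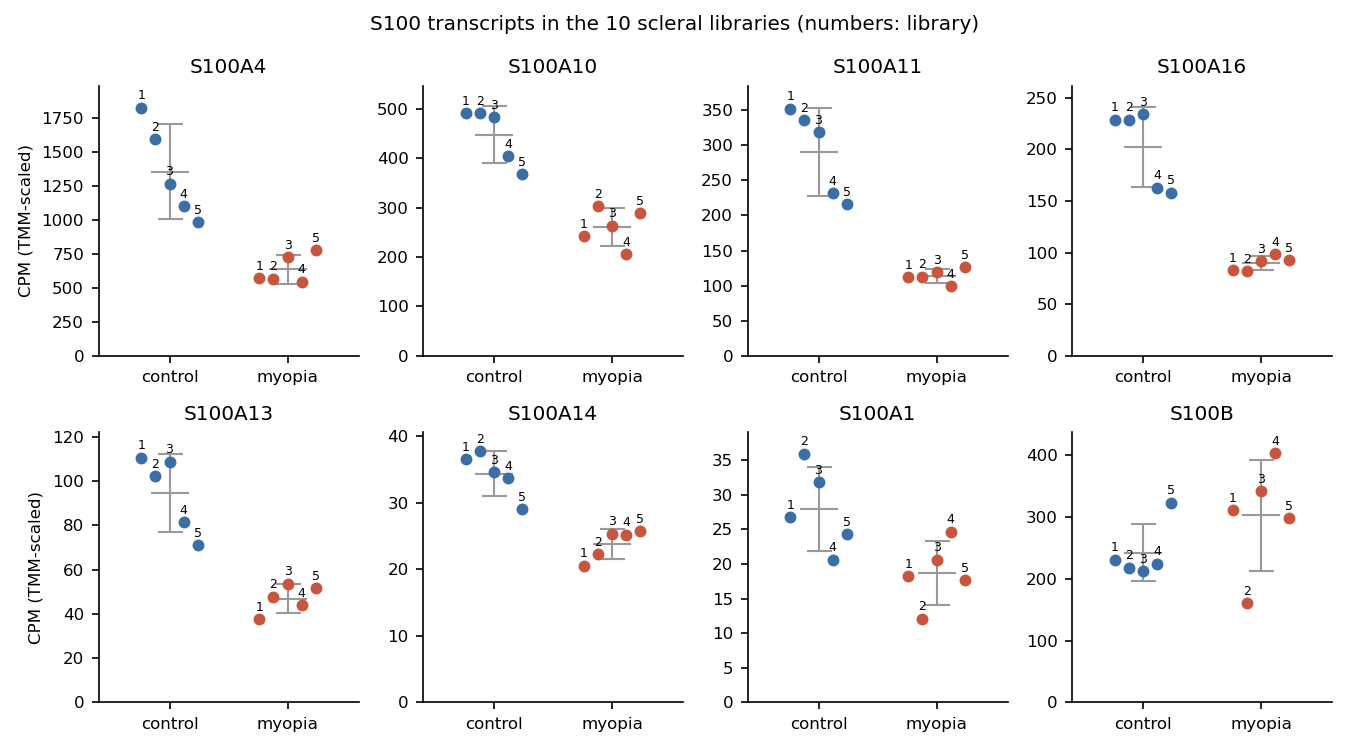
TMM-scaled CPM of the 8 S100 genes in each of the 10 libraries (points, numbered by library), with group mean and SD (bars), on linear axes from 0. Controls 4 and 5 lie below controls 1 to 3 for the 7 S100A genes, and only S100A1 and S100B show overlapping groups.

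S100A16, a widely expressed member studied in fat cell formation, stood at 228.6, 228.6, 234.1, 162.8 and 157.9 CPM in controls 1 to 5 and at 83.16, 82.32, 91.59, 98.45 and 92.47 CPM in myopia 1 to 5. The myopia libraries were close to each other, and all lay below the controls. With means of 202 ± 38.5 and 89.6 ± 6.80 CPM, S100A16 fell by 1.18 ± 0.13 on the log2 scale (adjusted p = 2.88e-06). S100A14, a member known mainly from epithelia, measured 36.56, 37.73, 34.54, 33.69 and 29.00 CPM in controls 1 to 5 and 20.55, 22.23, 25.32, 25.18 and 25.67 CPM in myopia 1 to 5. Control 5 and myopia 5 came closest, without overlap. S100A14 fell by 0.53 ± 0.10 on the log2 scale, from 34.3 ± 3.37 to 23.8 ± 2.28 CPM (adjusted p = 0.000341), with its call lost under total count scaling (-0.07, adjusted p = 0.538). Of 12 epithelial markers 7 had enough reads to be tested, of which 2 fell, 1 rose and 4 did not pass. The sum of the 12 was 25.9 to 50.7 CPM in control and 16.8 to 24.6 CPM in myopia. KRT8 was its largest part in every library, at means of 25.6 ± 6.48 CPM in control and 9.82 ± 1.19 CPM in myopia. The lower sum in myopia thus largely repeats the fall of KRT8 and does not show that epithelial markers fell as a set. KRT18 was the other marker that fell, and CDH1 rose. Total count scaling gave the same counts of 2 lower and 1 higher. The markers EPCAM, KRT14, KRT13, KRT12 and ESRP1 were among those with too few reads, and none of the 12 was at 0 in all libraries. The part of epithelium in the S100A14 difference was not tested.

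S100B, secreted by glia and long used as a marker of Schwann cells and melanocytes, was the one gene of the 8 that did not fall. Its levels in controls 1 to 5 were 230.6, 217.7, 212.3, 224.4 and 323.0 CPM, and in myopia 1 to 5 they were 310.6, 160.1, 341.6, 403.2 and 297.2 CPM. Control 5 stood above its group at a level within the myopia range, while myopia 2 was the lowest of all 10 libraries. Means were 242 ± 46.0 and 303 ± 89.5 CPM, which differ by 0.32 ± 0.20 on the log2 scale (adjusted p = 0.169). S100B passed as higher without myopia 2 (0.49, adjusted p = 0.00821) and with total count scaling (0.77, adjusted p = 0.0129). Without controls 4 and 5 it was 0.47 (adjusted p = 0.13).

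Markers of Schwann cells and glia varied between the libraries together with S100B in part. Their summed level was 5814, 7684, 7721, 8053 and 9386 CPM in controls 1 to 5 and 7161, 3189, 6029, 9704 and 6142 CPM in myopia 1 to 5. Control 5 and myopia 4 were highest of their groups in both S100B and the markers, and myopia 2 was lowest in both, whereas control 1 had the lowest marker sum of the controls and the second highest S100B. Of the 10 markers 3 fell, 3 rose and 4 did not pass, and none was at 0. SOX10, the transcription factor of the glial lineage, fell by 0.92 ± 0.16 on the log2 scale, from a range of 79.6 to 111 CPM in control to one of 34.96 to 71.36 CPM in myopia (adjusted p = 0.000169). CDH19, a cadherin of early Schwann cells, rose from 5.77 ± 2.61 to 26.7 ± 4.43 CPM. Of the 8 melanocyte markers 4 fell, 2 rose and 2 did not pass, with none at 0 and sums of 146 to 438 CPM in control against 54.7 to 220 CPM in myopia. Under total count scaling 1 glial marker was lower and 4 were higher, and 1 melanocyte marker was lower and 3 were higher. The part of glia and melanocytes in the level of S100B was not tested.

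**Figure D4:**
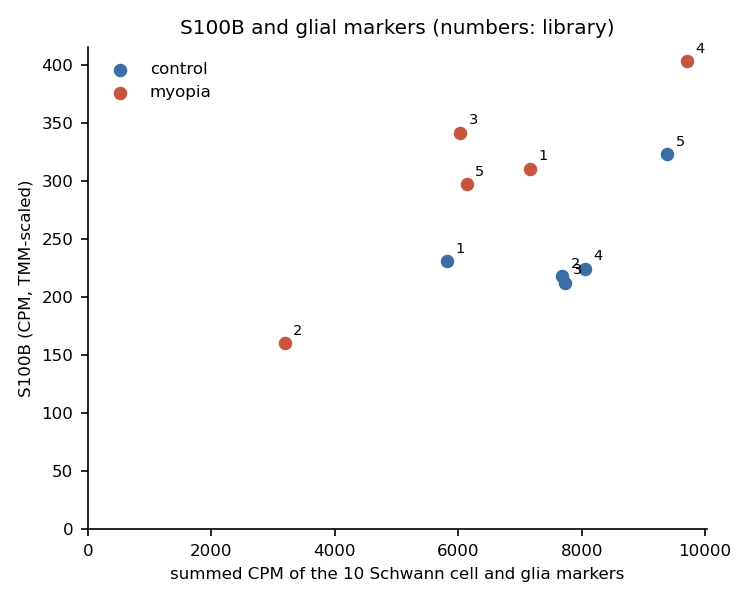
S100B (TMM-scaled CPM) against the summed CPM of 10 Schwann cell and glia markers in each library, numbered within its group. Myopia 2, at 3189 and 160.1 CPM, is lowest on both axes and myopia 4, at 9704 and 403.2 CPM, is highest on both.

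The differing courses of the members changed the make-up of the S100 reads, a measure within each library. Summed over the 8 genes, the TMM-scaled level was 2171 to 3299 CPM in control and 1307 to 1677 CPM in myopia. With total count scaling the sums were 1998 to 2565 and 1448 to 1971 CPM, and the groups overlapped under neither scaling. The share of S100A11 in the S100 reads was 10.7% ± 0.742 in control and 7.68% ± 0.692 in myopia, and that of S100A16 was 7.53% ± 0.693 and 6.04% ± 0.537, both without overlap. S100A4 gave the most reads of the 8 genes in every library, with a share of 49.7% ± 4.06 in control and 42.5% ± 3.32 in myopia and overlap between the groups. The share of S100A10 was 16.8% ± 1.30 and 17.6% ± 3.35, also overlapping. S100B made up 6.99%, 7.15%, 7.90%, 9.93% and 14.9% of the reads in controls 1 to 5 and 22.3%, 12.3%, 20.8%, 27.9% and 17.7% in myopia 1 to 5. Only myopia 2 fell within the control range. Set against S100A11 alone, there were 0.648 to 1.50 S100B reads per S100A11 read in control and 1.42 to 4.07 in myopia, again with myopia 2 and control 5 as the libraries that overlapped. Shares count reads, so they also depend on transcript length and give no order of levels between genes.

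**Figure D5:**
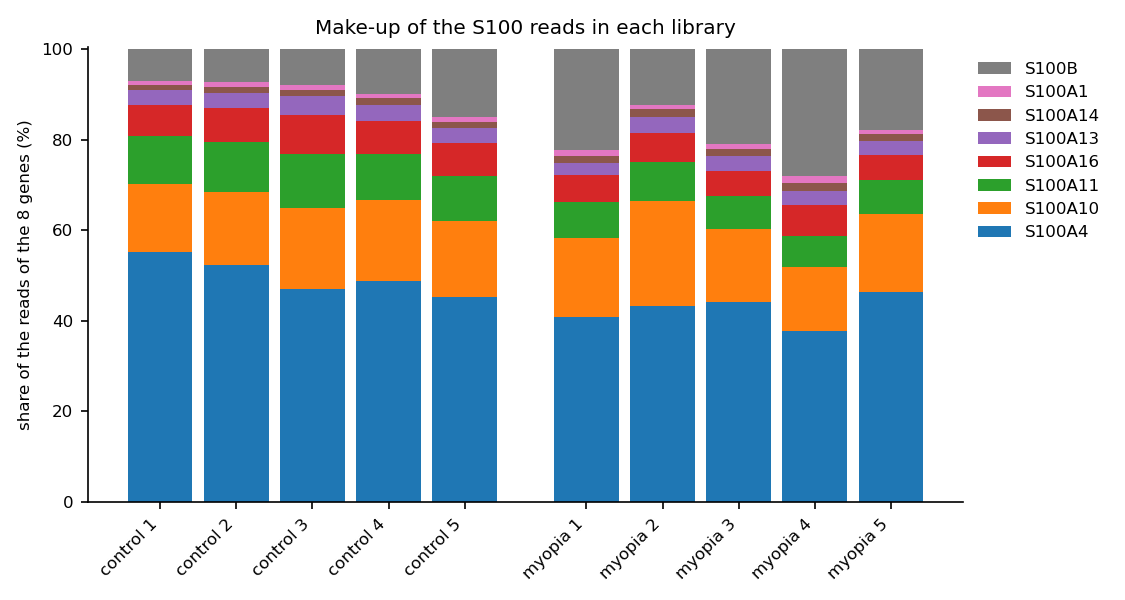
Percentage of the reads of the 8 S100 genes that came from each gene, 1 bar per library. The S100B part is 6.99% to 14.9% in the 5 controls and 12.3% to 27.9% in the 5 myopia libraries.

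Within the groups, most S100A genes varied together. Over the 10 libraries, the deviations of log2 CPM from the group means had a Pearson correlation of -0.176 to 0.90 in the 21 pairs of S100A genes, with a median of 0.713. S100A4 and S100A11 gave the highest value, and S100A1 with S100A10 the lowest. With the 7 S100A genes, S100B ranged from -0.76 (S100A10) to 0.567 (S100A1). For all 7 S100A genes controls 4 and 5 lay below controls 1 to 3, and the same libraries had the highest TMM factors of their group, so these correlations share the scaling and are descriptive. Among 11324 genes with a mean of at least 5 CPM, S100A11 was most like PSMB10 and PFN1 (both 0.987) and RITA1 (0.984). For S100A4 the most alike were COPZ1 (0.97), DPP7 (0.969) and C19ORF25 (0.968), and for S100A10 they were NAT8F7 (0.98), LZTFL1 (0.974) and NOP58 (0.966). S100A13 stood closest to ATP5MC2 (0.988), PRADC1 (0.984) and NDUFS5 (0.984), and S100A16 to MINDY4 (0.986), SHISA4 (0.986) and SURF1 (0.981). S100A14 was nearest to MEAF6 (0.953), a second line of SERPINB9 (0.952) and GNA15 (0.946), and S100A1 to SIRT2 (0.978), LIPE (0.976) and FAIM2 (0.945). S100B was most like SHTN1 (0.985), VASH1 (0.983) and SALL1 (0.973). Each set of 3 was picked as the highest of 11324 correlations over 10 libraries, so its values are high partly through that choice. Likeness within the groups also does not mean that a gene shared the difference between them.

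The table held 10 other lines with an S100 symbol, of which 7 were tested. S100P, a member that binds ezrin and the RAGE receptor, was at 55.69, 45.84, 52.63, 38.21 and 31.02 CPM in controls 1 to 5 and at 10.21, 13.38, 12.14, 11.63 and 14.74 CPM in myopia 1 to 5. Every myopia library was below every control. S100P fell by 1.85 ± 0.16 on the log2 scale (means 44.7 ± 10.2 and 12.4 ± 1.73 CPM, adjusted p = 7.05e-07), a lower value than that of each of the 8 chosen genes. S100A8 and S100A9, the subunits of calprotectin in neutrophils and other myeloid cells, were scarce, at means of 0.761 and 1.07 CPM in control and 0.524 and 0.679 CPM in myopia, and neither passed (adjusted p = 0.328 and 0.358). S100A3, at 3.05 ± 0.378 and 2.39 ± 0.599 CPM, did not pass either (log2 fold change -0.35 ± 0.23, adjusted p = 0.179, turning to 0.10 with total count scaling). For S100A5 the difference was -0.88 ± 0.49 on the log2 scale (adjusted p = 0.119), passing without controls 4 and 5 (-1.28, adjusted p = 0.0396) and with quality-weighted limma-voom (-1.19, adjusted p = 0.0417). A second line named S100A10 rose by 0.46 ± 0.14 on the log2 scale (9.95 ± 1.15 and 13.7 ± 2.30 CPM, adjusted p = 0.00944), and its reads were 2.28% ± 0.558 of those of the first line in control and 5.42% ± 1.51 in myopia, without overlap. What the second line represents and how reads were shared between the lines is unknown, and its values are uncertain. S100PBP, a protein that binds S100P and is not of the S100 family, rose by 0.47 ± 0.14 (6.90 ± 1.12 and 9.55 ± 0.814 CPM, adjusted p = 0.00905).

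Among the annexins, the membrane-binding partners of several S100 proteins, 5 of 9 fell, 2 rose and 2 did not pass. The median of the log2 fold changes was -0.63. With total count scaling 4 were lower and 4 higher. Beside ANXA2, ANXA8 fell by 1.26 ± 0.13 and ANXA6 by 1.15 ± 0.10 on the log2 scale. ANXA11, a partner of S100A6, fell by 0.63 ± 0.08 (adjusted p = 1.34e-05), and its call was lost with total count scaling (-0.18, adjusted p = 0.0674). ANXA4 rose by 0.92 ± 0.16 and ANXA3 by 0.33 ± 0.11, the latter not past the test without myopia 1 (0.27, adjusted p = 0.052).

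Receptors and other binding partners of S100 proteins were mixed. Of 30 genes 27 were tested, of which 8 fell, 13 rose and 6 did not pass. Their median was 0.14 on the log2 scale. With total count scaling 3 were lower and 16 higher. TLR4, a receptor for S100A8 and S100A9, rose by 1.76 ± 0.21 on the log2 scale, from 5.15 ± 1.72 to 17.5 ± 2.73 CPM (adjusted p = 6.49e-06) with no overlap. AGER was near the limit of the count filter, at 1.04 ± 0.362 CPM in control and 0.626 ± 0.331 CPM in myopia (adjusted p = 0.114), and passed as lower without myopia 5 (-1.11, adjusted p = 0.0193). CACYBP, an S100A6-binding protein that takes part in ubiquitin tagging, rose by 1.18 ± 0.11 (35.2 ± 5.47 and 79.8 ± 7.28 CPM). The scaffold AHNAK, which binds the S100A10 and ANXA2 complex, fell by 0.41 ± 0.10 (adjusted p = 0.00257), a direction that turned, to 0.03, with total count scaling. HLTF, a helicase-like factor, rose from 9.08 ± 1.42 to 38.3 ± 1.71 CPM, and PPFIBP1, the liprin that S100A4 binds, rose from 26.3 ± 7.74 to 119 ± 5.54 CPM. The actin-capping subunit CAPZA1 rose by 1.06 ± 0.10, and the galectin LGALS3 fell by 1.35 ± 0.13.

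Of the plasminogen system, to which S100A10 binds at the cell surface, 8 of 10 genes were tested, and 4 fell while none rose (median log2 fold change -0.28). With total count scaling 1 was lower and 2 were higher. ENO1, a glycolytic enzyme that also binds plasminogen, fell by 1.18 ± 0.12. PLAUR, the urokinase receptor, fell by 1.12 ± 0.34, or by 0.67 without control 3, and its call was lost with total count scaling (-0.67, adjusted p = 0.103). THBD, thrombomodulin, fell by 0.35 ± 0.11, with the direction turned, to 0.09, under total count scaling and the call lost without controls 4 and 5 (adjusted p = 0.0967).

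Other EF-hand calcium sensors were compared as relatives of the S100 proteins. Of 28 listed 23 were tested, with 14 lower, 5 higher and 4 that did not pass, and the median log2 fold change was -0.57. HPCAL1 fell by 1.51 ± 0.13, EFHD2 by 1.07 ± 0.08 and the protease CAPN1 by 0.92 ± 0.08, while grancalcin (GCA) rose from 1.03 ± 0.396 to 6.57 ± 0.635 CPM. Among 20 calcium-binding proteins of the endoplasmic reticulum, Golgi and matrix, 8 fell, 7 rose and 5 did not pass (median 0.22). NUCB1 fell by 1.41 ± 0.15, RCN3 by 1.19 ± 0.16 and SDF4 by 0.98 ± 0.13, and the chaperone CANX rose by 0.84 ± 0.12. With total count scaling 9 sensors were lower and 5 higher (median -0.12), and of the second list 6 were lower and 11 higher (median 0.65).

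All 8 genes were found in the guinea pig gene table, where S100A13, S100A1, S100A14 and S100A16 stand in a row, S100A4 stands between S100A3 and S100A5, and S100A10 stands next to S100A11. Neighbours outside the family differed among themselves, and 35.1% of all tested genes were lower and 36.9% higher in myopia. CHTOP, beside S100A13, did not pass, and TCHHL1 and LOC106028838 had no line in the count table. THEM4, beside S100A10, was low and rose by 1.28 ± 0.36 on the log2 scale (1.10 ± 0.465 and 2.66 ± 0.727 CPM, adjusted p = 0.00597). Beside S100B, DIP2A rose from 19.6 ± 4.23 to 48.5 ± 3.20 CPM (1.31 ± 0.13, adjusted p = 1.96e-06). On its other side PRMT2, an arginine methyltransferase, fell by 0.24 ± 0.09 (adjusted p = 0.0241), a direction that turned, to 0.21, with total count scaling. The PRMT2 call ended without any one of controls 2, 3 and 4 or myopia 1 and 3 (adjusted p from 0.0501 to 0.076).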

How the data were processed

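The authors deposited raw counts of reads per gene symbol, 1 column per library, as whole numbers. Per the labels, total RNA from sclera was made into mRNA libraries with a SMARTer kit. The submitters' processing notes name GRCm38 and mm10, both of mouse, with no role. For aligner, counter, annotation and strand, the entry is: not given in the sources used here. Hence no coordinates or lengths are given. A guinea pig gene table (RefSeq, mCavPor4.1) served only for names, neighbours and whether the spans of neighbouring genes overlap. Sequences of S100 proteins and promoters, and lengths, were not analysed here.

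Of 18079 lines, 437 had no symbol (0.751% to 1.69% of counts) and were left out, and 723 symbols stood on several lines. Each line was tested separately with edgeR 4.0.16 in R 4.3.3 (filterByExpr with minimum count 10 and total 15, TMM, robust glmQLFit, glmQLFTest, group as the one factor), adjusted by Benjamini-Hochberg over 14683 genes with a threshold of 0.05. The procedure was tested on simulated data in which 200 of 14683 genes were changed in random directions. It recovered 75% of 2-fold and 94% of 4-fold changes and called 11 unchanged genes. The simulation had few changed genes and no shift in RNA composition between groups, so it did not test the scaling. The biological coefficient of variation was 0.204. Log2 deviations used a prior count of 2. The SE is the log2 fold change over the square root of the F statistic. Ratios of reads were tested with exact two-sided permutation tests over libraries. Tables and plots were made with pandas 2.3.3 and matplotlib 3.10.9. Alternatives were other scalings and filters, DESeq2 1.42.0, limma-voom (limma 3.58.1), a replicate block, a surrogate variable (sva 3.50.0), summed lines, and libraries left out.

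Libraries of a group differed beyond counting error (chi-square of 18.7 to 122 for each degree of freedom), so none was taken for a copy of another. Which eyes share an animal is not stated. The p-values thus reflect only how these libraries vary, and that variation may be technical. The S100 genes and all lists were chosen with earlier results of these data known. Named were all S100 genes, up to 4 called genes of lowest p from each list of related genes plus 9 partners of interest, the 3 genes most like each member, other S100 lines and neighbouring genes. The marker genes named, and ANXA1, ANXA3 and ANXA4, were chosen after their values were seen. A few genes that this rule names are not reported here.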

Additional observations from a re-analysis of the deposited data

Results flagged for a closer look

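In 116 sets of 5 libraries (1 gene or 1 ratio in 1 group), the highest or lowest library was compared with the rest, and it counted as apart where its gap to the nearest other library exceeded 0.71 of the range of the set. Chance alone sets about 5% of such sets apart. Here 5 were. S100B in control 5 stood at 323 CPM, with the other controls at 212.3 to 230.6 CPM. AGER in myopia 5 stood at 1.211 CPM, against 0.4157 to 0.5388 CPM in the other myopia libraries. HLTF in control 5 was at 11.56 CPM and in the other controls at 8.157 to 8.758 CPM. PLAUR in control 3 was at 18.26 CPM and in the other controls at 6.095 to 7.482 CPM. THEM4 in control 4 was at 0.2952 CPM and in the other controls at 1.183 to 1.515 CPM.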

How the results depend on the processing

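Over 23 alternatives the 8 S100 genes gave 184 values, of which 180 kept the call, 4 changed it and 0 turned in direction. With total count alone 5 S100 genes were lower and 1 was higher, and 2752 genes of all tested were lower against 5149 with TMM. Leaving out 1 library at a time gave 0 to 1 higher S100 genes and left S100A1 at -0.70 to -0.46 (adjusted p from 0.00479 to 0.0456) and S100B at 0.20 to 0.49 (adjusted p from 0.00821 to 0.388). With total count alone the direction turned for AHNAK (0.031), MYH9 (0.17), ANXA1 (0.35), THBD (0.087), PRMT2 (0.21) and S100A3 (0.10). The change of median under this scaling goes with the factors that differ between the groups, and which scaling is nearer to RNA per cell was not tested. Deviations from the group means had correlations of -0.129 to 0.013 between same-numbered libraries, so no pairing by replicate number was seen. With 5 libraries in each group, these values cannot exclude a shared animal or batch. With the replicate block 7 S100 genes were lower, S100A1 had -0.59 (adjusted p = 0.0354), S100B 0.28 (adjusted p = 0.203), and 10103 genes were called against 10561. S100A5 and S100A8 rested on mean counts of 21.0 and 21.6 reads in control, with coefficients of variation of 54.3% and 55.9% between those libraries.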
